A study of Sus scrofa with 16 samples.

Results

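The class II antigen presentation genes measured here were SLA-DRB1, SLA-DQA1, SLA-DQB1, SLA-DOA and CD74, in Iberian pigs, in the liver and in the fat under the skin of the back. They were taken as every array probe set whose listed gene symbol is 1 of these 5, which gave 7 of the 23999 non-control probe sets (3 for SLA-DRB1 and 1 for each other gene). The 5 genes, of 6765 named on the array, were selected on a readout of these same arrays, taken here to be their feeding and tissue values. Their feeding and tissue differences are therefore given as a description, without printed p-values. Where these genes stood against a p threshold is stated too, and carries no weight of its own. Sex differences were tested. Another 3 probe sets list SLA-DRB1 together with a second locus and were left out.

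Each of the 16 Affymetrix porcine arrays carried RNA of 1 tissue of 1 animal aged 211 days. All pigs were of the Iberian breed and received 1 pelleted diet until the restriction began. In each tissue the arrays formed 4 cells of 2 arrays: males at the high feeding level (animals 14 and 17), males at the low feeding level, which is a 20% restriction (15 and 16), and females at the same 2 levels. The females at the high level were 21 and 22 in backfat and 19 and 20 in liver, and those at the low level were 20 and 23 in backfat and 18 and 21 in liver. Females 20 and 21 therefore carry opposite feeding levels in the 2 tissues, and the labels hold 10 animal numbers where the study's design text counts 8 animals. Leaving out the 4 arrays of these females gave backfat feeding differences close to those below, as stated there. Array medians lay between 3.93 and 4.12 log2 units, and between 49.4% and 50.9% of probe sets were above 4, the level used here as the lower limit of a usable signal. The number of arrays, 2 in a cell, limits the precision of every value.

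Class II molecules are heterodimers of an alpha and a beta chain that carry peptides from the endosomes to the surface of antigen-presenting cells, where CD4+ T cells read them. In pigs the chains are encoded in the swine leukocyte antigen complex: SLA-DRA and SLA-DRB1 encode the DR chains, and SLA-DQA1 and SLA-DQB1 the DQ chains. CD74, the invariant chain, binds the new heterodimer, fills its groove and guides it to the endosome, where SLA-DM exchanges the remaining fragment for a peptide and SLA-DO restrains that exchange. Macrophages, dendritic cells and B cells express these genes constitutively, interferon gamma induces them in other cells through the transactivator CIITA, and in adipose tissue both resident macrophages and adipocytes are known to carry class II. In the RefSeq annotation of the pig genome SLA-DRB1 and SLA-DQA1 are direct neighbours, SLA-DQB1 lies beyond 1 pseudogene, SLA-DQB2, and SLA-DOA follows SLA-DMB and SLA-DMA. CD74 lies outside the complex.

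In backfat the 2 classical beta chains, the DQ alpha chain and the invariant chain were all lower at the low feeding level, and on every one of these 4 genes the 4 low arrays lay below the 4 high arrays. The mean difference was about 1 log2 unit for SLA-DRB1, SLA-DQA1 and SLA-DQB1 and about 0.5 for CD74. In liver the same 4 probe sets had no such separation.

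SLA-DRB1, the polymorphic DR beta chain (Entrez gene 100153386), read 9.40 and 9.68 in the backfat of high-level males 14 and 17 and 9.64 and 9.77 in that of high-level females 21 and 22. At the low level it read 8.33 and 8.88 in males 15 and 16 and 8.47 and 8.33 in females 20 and 23. The highest low array, male 16, stayed below the lowest high array, male 14. The means were 9.62 ± 0.16 (SD, n = 4) at the high level and 8.50 ± 0.26 (SD, n = 4) at the low level, a difference of -1.12 ± 0.16 (SE), or 2.18-fold lower. In liver the gene read 8.87, 8.29, 9.10 and 8.76 at the high level (males 14 and 17, females 19 and 20) and 8.80, 8.56, 8.40 and 8.99 at the low level (males 15 and 16, females 18 and 21). These 2 sets of 4 values are interleaved, and their means differed by -0.07 ± 0.21 (SE). The other 2 SLA-DRB1 probe sets gave no usable signal, at 1.74 to 1.78 and 2.70 to 2.95 on the 16 arrays.

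SLA-DQA1, the DQ alpha chain (Entrez gene 100153387), read 9.06, 9.61, 9.11 and 9.47 in high-level backfat (males 14 and 17, females 21 and 22) and 8.06, 8.38, 8.20 and 8.14 in low-level backfat (males 15 and 16, females 20 and 23). No value lay between 8.38 and 9.06. The means of 9.31 ± 0.27 and 8.19 ± 0.14 (SD, n = 4 each) gave a difference of -1.12 ± 0.18 (SE), or 2.17-fold lower. In liver, in the order of animals used above, the gene read 8.27, 6.90, 8.05 and 7.93 at the high level and 8.19, 7.66, 7.26 and 8.15 at the low level. The spread within each liver group was larger than their difference of 0.03 ± 0.35 (SE), with male 17 the lowest of the 8 arrays.

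SLA-DQB1, the DQ beta chain (Entrez gene 100037921), read 10.50, 10.80, 10.58 and 10.71 in high-level backfat and 9.54, 9.97, 9.74 and 9.60 in low-level backfat, in the same animal order. Again male 16 was the highest of the low arrays and male 14 the lowest of the high ones. The means of 10.65 ± 0.13 and 9.72 ± 0.19 (SD, n = 4 each) gave a difference of -0.93 ± 0.15 (SE), or 1.91-fold lower. Liver values were 8.76, 7.98, 9.04 and 8.93 at the high level and 8.98, 8.62, 8.53 and 8.86 at the low level, with a difference of 0.07 ± 0.21 (SE). Male 17, highest of all in backfat for both DQ chains, was lowest in liver for both.

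CD74, the invariant chain (Entrez gene 396660), read 9.67, 9.995, 9.82 and 9.50 in high-level backfat and 8.96, 9.23, 9.38 and 9.23 in low-level backfat. The gap between the groups was narrow, from 9.38 in female 20 to 9.50 in female 22. The means of 9.75 ± 0.21 and 9.20 ± 0.17 (SD, n = 4 each) gave a difference of -0.55 ± 0.15 (SE), or 1.46-fold lower. In liver CD74 read 8.53, 7.97, 8.81 and 8.50 at the high level and 8.82, 8.36, 8.18 and 8.85 at the low level, which overlap and differ by 0.10 ± 0.23 (SE).

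SLA-DOA, the alpha chain of the SLA-DO modulator (Entrez gene 100157996), was at the lower limit. In high-level backfat it read 2.67 and 3.21 in males 14 and 17 and 4.07 and 4.002 in females 21 and 22, and in low-level backfat 2.0003, 1.64, 2.69 and 1.63. It passed the filter of a value above 4 on at least 2 arrays only through those 2 high-level females, so its feeding difference is not counted as support for the other genes. In liver all 8 values lay between 1.57 and 1.64.

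**Figure D1:**
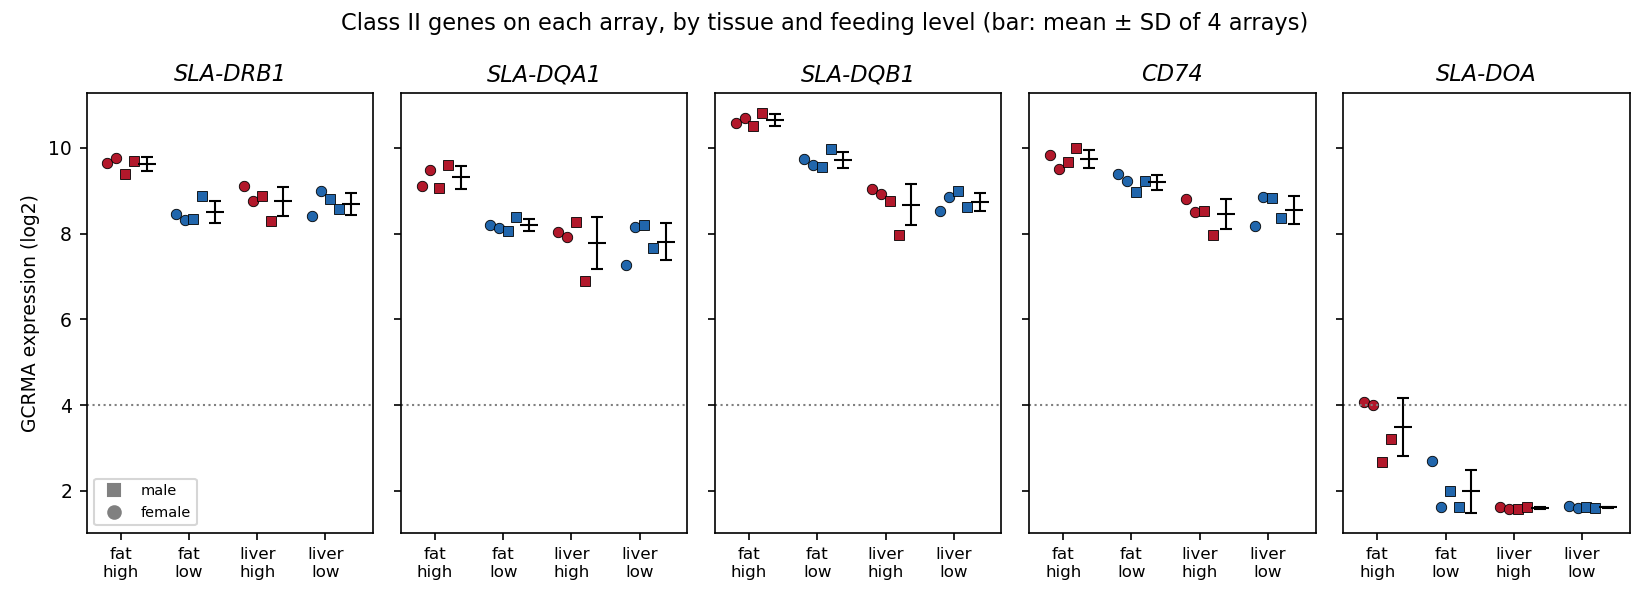
GCRMA log2 expression of the 5 class II genes (brightest probe set of each) on every array, by tissue and feeding level, with red for high, blue for low, squares for males and circles for females. Bars are mean ± SD of 4 arrays and the dotted line marks 4 log2 units. The blue backfat points of SLA-DRB1, SLA-DQA1, SLA-DQB1 and CD74 all lie below the red ones, the liver points are mixed, and SLA-DOA lies at or below the line except in 2 females.

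Read against all probe sets, the backfat pattern stood as follows. With limma and Benjamini-Hochberg adjustment over 12686 backfat probe sets, 0 of the 5 class II probe sets tested and 0 of all probe sets passed an adjusted p of 0.05 for feeding (0%). At an unadjusted p below 0.05 stood SLA-DRB1, SLA-DQA1, SLA-DQB1 and CD74, as did 1410 (11.1%) of all, of which 688 (5.42%) were lower at the low level. SLA-DOA is left out of that count, since it passed the limit of 4 through high-level arrays. Low arrays all below high arrays were found for 4 class II probe sets and for 426 of all probe sets (3.36%). The differences of these 4 ran from -1.12 to -0.55, and the median over all probe sets tested was 0.01. These counts come from the contrast in view when the genes were proposed and carry no weight of their own. In liver 0 of 4 class II probe sets and 0 of 12617 in all (0%) passed the adjusted p of 0.05, with 1455 (11.5%) below an unadjusted 0.05 and none of the 4 among them. When the arrays of females 20 and 21 were left out, the backfat differences were -1.19 for SLA-DRB1, -1.23 for SLA-DQA1, -0.998 for SLA-DQB1 and -0.50 for CD74, and again 0 probe sets passed. One fit over all 16 arrays, which borrows the spread of the liver arrays, called SLA-DRB1 and, from values mostly under 4, SLA-DOA, with or without the males' animal number as a random block.

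Whether feeding acted unequally on the 2 tissues was read from the difference of the feeding differences, backfat less liver. It was -1.06 ± 0.27 (SE) for SLA-DRB1, -1.15 ± 0.42 for SLA-DQA1, -1.01 ± 0.26 for SLA-DQB1 and -0.64 ± 0.28 for CD74. None of the 5 class II probe sets passed an adjusted p of 0.05 in limma, and 3 of 13962 probe sets did (0.0215%). Below an unadjusted 0.05 were 1225 (8.77%), those of the 4 genes just given among them. This contrast contains the backfat feeding difference, in view when the genes were proposed. These counts carry no weight of their own. Without female 20 in backfat the count of class II probe sets called was 1, SLA-DOA, again from values mostly under 4. Without the arrays of females 20 and 21 the value for CD74 was -0.35.

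Neither sex nor its interaction with feeding, which had no part in the choice of the genes, separated the class II values in limma. In backfat the female minus male difference was -0.02 for SLA-DRB1 (95% interval -0.41 to 0.37, adjusted p = 0.991), -0.05 for SLA-DQA1 (-0.47 to 0.38, 0.977), -0.04 for SLA-DQB1 (-0.41 to 0.32, 0.971) and 0.02 for CD74 (-0.34 to 0.38, 0.989). SLA-DOA stood 0.72 higher in females (adjusted p = 0.822), from values mostly under 4. It passed the limit of 4 only through females 21 and 22, so its sex difference is not counted. In the same test 14 of all backfat probe sets passed (0.11%), and 766 (6.04%) were below an unadjusted 0.05. None of SLA-DRB1, SLA-DQA1, SLA-DQB1 and CD74 was among the 766, and SLA-DOA is left out of that count. Differences of SLA-DRB1, SLA-DQA1, SLA-DQB1 or CD74 between the sexes larger than about 0.5 log2 units lie outside these intervals. In liver the female minus male differences of the 4 genes were all positive, from 0.09 for SLA-DQA1 to 0.25 for SLA-DQB1, with adjusted p from 0.581 to 0.931, while 572 liver probe sets passed (4.53%) and 2419 (19.2%), none of them for a class II gene, were below an unadjusted 0.05. The liver interval for SLA-DQA1, -0.74 to 0.91, was the widest of the 4. The sex by feeding interaction in backfat was -0.37 for SLA-DRB1 (-1.15 to 0.41), -0.01 for SLA-DQA1 (-0.86 to 0.85), -0.08 for SLA-DQB1 (-0.80 to 0.65) and 0.38 for CD74 (-0.34 to 1.10). The liver interactions ran from -0.73 for SLA-DQB1 to -0.34 for SLA-DRB1. No probe set of the array passed for the interaction in either tissue (0%), and 668 (5.27%) in backfat and 685 (5.43%) in liver were below an unadjusted 0.05, none of them for a class II gene. With 2 arrays in a cell these interaction intervals are too wide to tell equal feeding differences in both sexes from moderately unequal ones.

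The genes that work on the class II molecule followed the same direction in backfat. Of 14 listed loading and processing genes, 9 are on the array with a usable signal, and all 9 had a negative feeding difference in backfat, with a median of -0.85 against 0.01 over all probe sets. None passed an adjusted p of 0.05 in limma. SLA-DRA, the DR alpha chain that pairs with SLA-DRB1, read 10.70, 11.06, 10.68 and 11.002 in high-level backfat and 9.67, 10.20, 10.03 and 9.88 in low-level backfat. Its groups do not overlap and differed by -0.91 ± 0.18 (SE, adjusted p = 0.203). CTSD, an endosomal aspartic protease, differed by -0.85 ± 0.18 (adjusted p = 0.212), and IFI30, the lysosomal thiol reductase that opens disulphide bonds of antigens, by -1.18 ± 0.25 (adjusted p = 0.212). In the groups of CTSD and IFI30 some low arrays reached the high ones, whereas SLA-DRA, CTSS and CTSB, the last 2 being cathepsins of the endosome, showed no overlap. These are 3 of 9 genes, against 3.36% of all backfat probe sets with every low array below the high ones. The list was chosen with earlier results of these data known, so its counts carry no weight of their own. The SLA-DM beta chain, SLA-DMB, differed by -1.08 ± 0.29 (adjusted p = 0.283). For SLA-DMA, the DM alpha chain, the brighter probe set differed by -0.16 ± 0.20 and the dimmer one by -0.81 ± 0.20 (adjusted p = 0.783 and 0.254), so the size of its difference depends on the probe set read. In liver 7 of the 9 loading and processing genes had a negative difference, with a median of -0.21, and SLA-DRA differed by -0.19 ± 0.30 (adjusted p = 0.833).

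**Figure D2:**
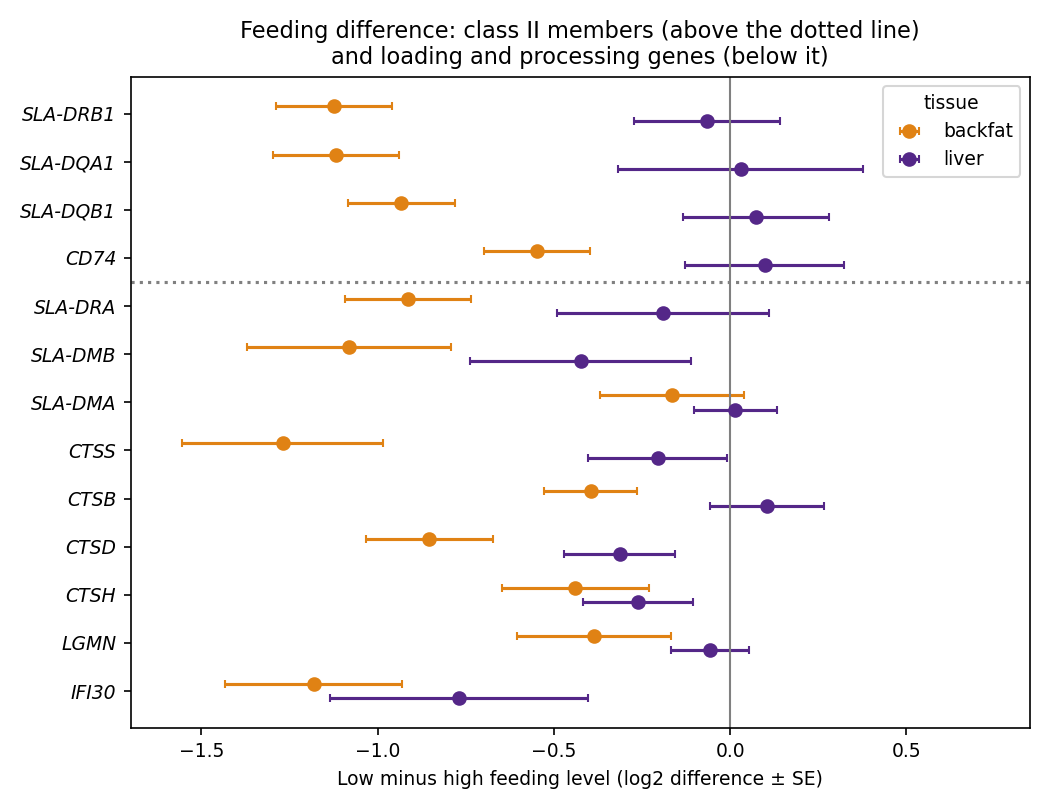
Feeding difference (low minus high level, log2 units, ± SE of the limma fit on 8 arrays) of 4 class II genes and of 9 genes of class II loading and processing, in backfat (orange) and liver (purple). All 13 backfat points lie below 0, from -0.16 for SLA-DMA to -1.27 for CTSS, and the liver points of the 4 class II genes lie at 0 within their errors.

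Of 8 listed transcription factors of the class II promoter 5 are on the array, and of the 3 tested in backfat 2 had a negative and 1 a positive difference, none passing in limma. The transactivator CIITA and CREB1 were not above 4 on 2 arrays in either tissue. RFXANK, a subunit of the RFX complex on the class II X box, differed in backfat by 0.25 ± 0.15, NFYB by -0.32 ± 0.16 and NFYC by -0.12 ± 0.17 (adjusted p = 0.557, 0.504 and 0.802 in limma), the last 2 being subunits of the Y box factor NF-Y.

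Genes of the interferon gamma response and of class I presentation were examined beside them. The first list holds the receptor gene IFNGR1 and the kinase genes JAK1 and JAK2 as well as induced genes. Of 9 interferon gamma response genes with a usable signal in backfat, 8 had a negative feeding difference, with a median of -0.35, and none passed in limma. CXCL9, a chemokine that draws T cells, differed by -1.49 ± 0.26 (adjusted p = 0.198), GBP2, an interferon-induced GTPase, by -0.93 ± 0.21 (0.228), and IRF1, the transcription factor upstream of CIITA, by -1.63 ± 0.39 (0.252). The 2 feeding groups of CXCL9, GBP1, GBP2 and IRF1, 4 of the 9, did not overlap (3.36% of all probe sets). IFNG itself was not above 4 on 2 arrays in either tissue. The list mean lay between 8.13 and 8.50 on the high arrays and between 7.55 and 7.78 on the low arrays. For class I presentation 11 of 15 genes were negative, with a median of -0.21 and none called. TAP1, the peptide transporter, differed by -0.86 ± 0.16 (adjusted p = 0.198), SLA-6 by -0.74 ± 0.22 (0.314) and SLA-3 by -0.42 ± 0.16 (0.411), the last 2 being class I heavy chains. Of the 15, 2 had groups that do not overlap, TAP1 and SLA-6 (3.36% of all probe sets). Both lists were chosen with earlier results of these data known, so their counts carry no weight of their own. The negative direction was not confined to backfat. In liver 12 of 15 class I genes were negative, with a median of -0.34 and none called. Of 10 interferon gamma response genes tested in liver, 7 were negative, with a median of -0.13 and none called.

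Markers of immune cell types were read beside the class II genes in backfat, and none passed an adjusted p of 0.05 in limma for feeding. In whole tissue, fewer cells of a type and less RNA per cell cannot be told apart. Of 18 listed macrophage markers 12 are on the array, and 10 of them were tested, MARCO and SIGLEC1 not being above 4 on 2 backfat arrays. Feeding differences were negative for 9 of the 10, with a median of -1.17 and none called in limma. TYROBP, a signalling adaptor of myeloid cells, differed by -1.29 ± 0.20 (adjusted p = 0.182), FCER1G, the Fc receptor gamma chain, by -1.75 ± 0.36 (0.212) and AIF1 by -1.35 ± 0.29 (0.212). These 3 and CD163, a scavenger receptor, 4 of the 10, had groups that do not overlap (3.36% of all probe sets). As this list too was chosen with earlier results known, its counts carry no weight of their own. The mean of the 10 markers was 5.20 to 6.69 on the high arrays and 4.47 to 5.31 on the low arrays, and these ranges overlap. CD83, the 1 dendritic cell marker tested, differed by -0.76 ± 0.29 (adjusted p = 0.42). It was above the limit only on 2 high-level arrays, with low arrays at 2.90 to 3.11, so this difference is not counted. XCR1, CD80, CD86, CCR7 and IRF8 were below the limit. The B cell marker CD79B was below it too, JCHAIN differed by -0.10 ± 0.25 (adjusted p = 0.899), and 0 of 8 T cell markers on the array were above it. In liver 8 of the 10 macrophage markers tested also had a negative feeding difference, with a median of -0.23 and none called.

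Markers of hepatocytes, adipocytes and endothelial cells were read in backfat too. The 5 hepatocyte markers tested in backfat all had a positive difference, none called in limma (ALB 2.37 ± 1.23, adjusted p = 0.515). TTR and SERPINA1 among them were above 4 only on 2 low-level arrays each, so their direction is not counted. The median of 1.45 is the SERPINA1 value, and FGB and TF differed by 2.18 and 1.04. The mean of all 5 ranged from 3.43 to 5.45 on the high arrays and from 4.61 to 7.58 on the low arrays. The mean of 5 adipocyte markers was 11.80 to 12.89 at the high level and 11.53 to 11.71 at the low level, with 4 of 5 negative, a median of -0.16 and none called. LEP, the gene of the adipocyte hormone leptin, read 8.08 to 10.60 at the high level and 6.91 to 7.88 at the low level, a difference of -2.06 ± 0.40 (SE, adjusted p = 0.203), and the other 4 differed by -0.28 to 0.06. Endothelial markers had a median of -0.20, with 3 of 4 negative and none called. The part that any of these cell types had in the class II differences was not tested.

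**Figure D3:**
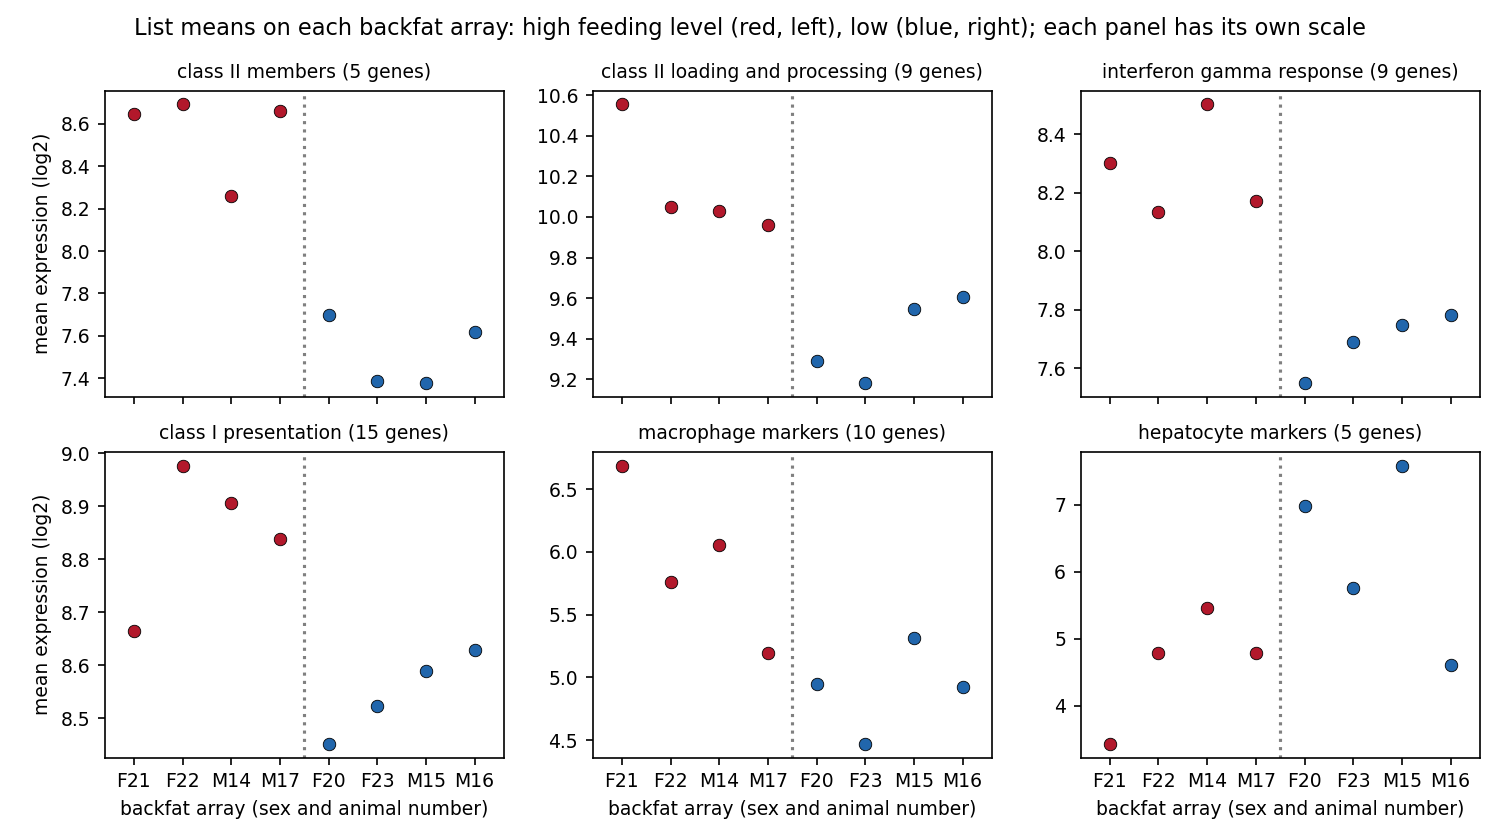
Mean log2 expression of 6 gene lists on each backfat array, labelled by sex (F or M) and animal number, with high feeding level in red on the left and low in blue on the right, and a separate scale in each panel. The class II genes, whose mean here takes in SLA-DOA, were chosen on this contrast. The hepatocyte mean takes in TTR and SERPINA1, which were above 4 only on low arrays. The interferon gamma mean lies between 8.13 and 8.50 on the high arrays and between 7.55 and 7.78 on the low arrays, and the macrophage mean between 5.20 and 6.69 and between 4.47 and 5.31.

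The class II genes also varied together from array to array. Over the 8 backfat arrays the 6 pairs among SLA-DRB1, SLA-DQA1, SLA-DQB1 and CD74 had a Pearson r of 0.833 to 0.992, which mostly reflects the 2 feeding groups. After the mean of each feeding level was removed, r was 0.916 for SLA-DRB1 with SLA-DQB1, 0.869 for the DQ alpha and beta chains, and 0.144 to 0.419 for CD74 with the 3 chains. In liver, where feeding did not separate the arrays, the 6 pairs had an r of 0.865 to 0.937, and of 0.892 to 0.977 within feeding levels. CD74 thus followed SLA-DRB1 closely within feeding levels in liver (r = 0.977) and loosely in backfat (r = 0.144). Each r is over the 8 arrays of a tissue, and the males carry the same animal numbers in both tissues. A test of that contrast was not made.

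The 5 genes most like the mean of the class II genes in backfat, of 4914 genes, were RAB18, a small GTPase of lipid droplets (r = 0.973), EML4, which binds microtubules (0.967), GABARAPL2, of the autophagy machinery (0.965), GLRX, a glutaredoxin (0.962), and SLA-DRA (0.962). Within feeding levels the same 5 had an r of 0.824, 0.883, 0.940, 0.844 and 0.686 in that order. In liver, of 4924 genes, they were MYD88, the adaptor of Toll-like receptors (0.967), LOC106504372 (0.957), SLA-DRA (0.939), ALOX5AP, of leukotriene synthesis (0.928), and GNG11, a G protein gamma chain (0.921). SLA-DRA is the only gene in both sets of 5. The r of the 10 macrophage markers with the class II mean within feeding levels of backfat ran from -0.32 for C1QC to 0.14 for CD14. That mean takes in SLA-DOA, mostly under 4, whose SD within feeding levels was the largest (0.67 high, 0.50 low). The other class II genes had an SD of 0.13 to 0.27 there. All backfat r values of this paragraph therefore lean on SLA-DOA, and a mean without it was not run.

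The 4 males, sampled in both tissues under 1 number and 1 feeding level, allow a look within animals. The class II mean (5 genes in backfat, 4 in liver, so only the order within a tissue is comparable) was 8.26 and 8.66 in the backfat of high-level males 14 and 17 and 7.38 and 7.62 in that of low-level males 15 and 16. Their liver means were 8.61 in male 14, 7.78 in male 17, 8.70 in male 15 and 8.30 in male 16. Male 17 ranked first of the 4 in backfat and last in liver, and male 15 the reverse.

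Between tissues the class II genes stood higher in backfat, with an order of conditions that differed by gene. SLA-DQB1 averaged 10.18 ± 0.52 in backfat and 8.71 ± 0.35 in liver (SD, n = 8 each), a difference of 1.47 ± 0.13 (SE) with no overlap. CD74 averaged 9.47 ± 0.34 and 8.50 ± 0.32, a difference of 0.97 ± 0.14, also with no overlap. SLA-DQA1 (8.75 ± 0.63 and 7.80 ± 0.49) differed by 0.95 ± 0.21 and SLA-DRB1 (9.06 ± 0.63 and 8.72 ± 0.28) by 0.34 ± 0.14, and the tissues overlap on both. For SLA-DQA1, SLA-DQB1 and CD74 the order of the means was high-level backfat, low-level backfat, low-level liver and high-level liver, and the last 2 differed by less than the spread of either. On SLA-DQA1 low-level backfat and low-level liver were also closer than the liver SD of 0.44. For SLA-DRB1 it was high-level backfat (9.62), high-level liver (8.76), low-level liver (8.69) and low-level backfat (8.50), and the last 3 lie within 1 SD of each other.

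Such tissue differences are common on this array. In limma 5 of 5 class II probe sets passed an adjusted p of 0.05, as did 10572 of 13962 probe sets (75.7%), 6082 of them higher in backfat (43.6%). The 2 genes with backfat above liver on every array stand beside 3726 such probe sets (26.7%). Tissue values were taken to be in view when the genes were proposed, so these counts carry no weight of their own. SLA-DOA passed the filter only through 2 backfat arrays, and its call is not counted as support for the other genes. With its values under 4 set to 4 its difference was 0.01. For SLA-DRB1 the call was lost in 15 of 26 alternatives, quantile normalization (0.29) and a shift to a common median (0.25) among them, the median over all probe sets being 0.15. Restricted to the 4 males with the animal as a fixed replicate block, 2 class II probe sets passed, SLA-DQB1 at 1.62 and CD74 at 1.04. Without the arrays of females 20 and 21, or without female 21 or 22 in backfat, 3 passed. Whether the 2 tissues were normalized in 1 run is not given in the sources used here, so levels are set across tissues with that limit.

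The partners of these genes did not all share the tissue direction. SLA-DRA was 1.41 ± 0.19 (SE) higher in backfat (adjusted p = 2.66e-05 in limma). Of the 9 loading and processing genes, 4 were higher in backfat (SLA-DRA, CTSD by 1.38, IFI30 by 1.08 and CTSH by 1.04) and 3 lower (SLA-DMA by its brighter probe set at -3.48, CTSS at -1.92 and the legumain gene LGMN at -1.32). The 2 SLA-DMA probe sets disagree in direction, the dimmer one standing 1.03 higher in backfat (adjusted p = 0.00974). Class I presentation was split, with 4 of 15 genes higher in backfat (SLA-6 by 1.89, SLA-8 by 1.34, TAP1 by 1.16 and SLA-3 by 0.69) and 6 lower (PDIA3, TAPBP, CALR, PSME2, PSMB10 and PSME1, from -3.04 to -0.30). Of 10 interferon gamma response genes 5 were higher in backfat (GBP2 by 2.70, GBP1, IFNGR1, WARS and JAK1 by 1.02). CXCL9 (-2.31) and IRF9 (-0.85) were lower. IRF8 was lower too (-2.25) but was above 4 only on liver arrays, so its difference is not counted. NFYC, 1 of 3 class II transcription factors tested, was lower (-0.68). All 10 macrophage markers tested were lower in backfat, with a median of -3.88, from -7.16 for CD5L, a scavenger-type protein of liver macrophages, and -5.30 for CD14 to -0.82 for TYROBP. The other 7 were MRC1, VSIG4, C1QA, CD163, C1QC, AIF1 and FCER1G. Of the other immune markers tested, JCHAIN of B lineage cells was lower in backfat (-3.02). CD83 of dendritic cells was 0.58 higher in backfat but was above 4 only on 2 backfat arrays, so that difference is not counted. IRF8, on the dendritic cell list too, and the T cell markers CD2 (-0.99) and CD8A (-0.77) were lower. IRF8, CD2 and CD8A were above 4 only on liver arrays, so their differences are not counted. The part of cell types in the tissue differences was not tested.

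**Figure D4:**
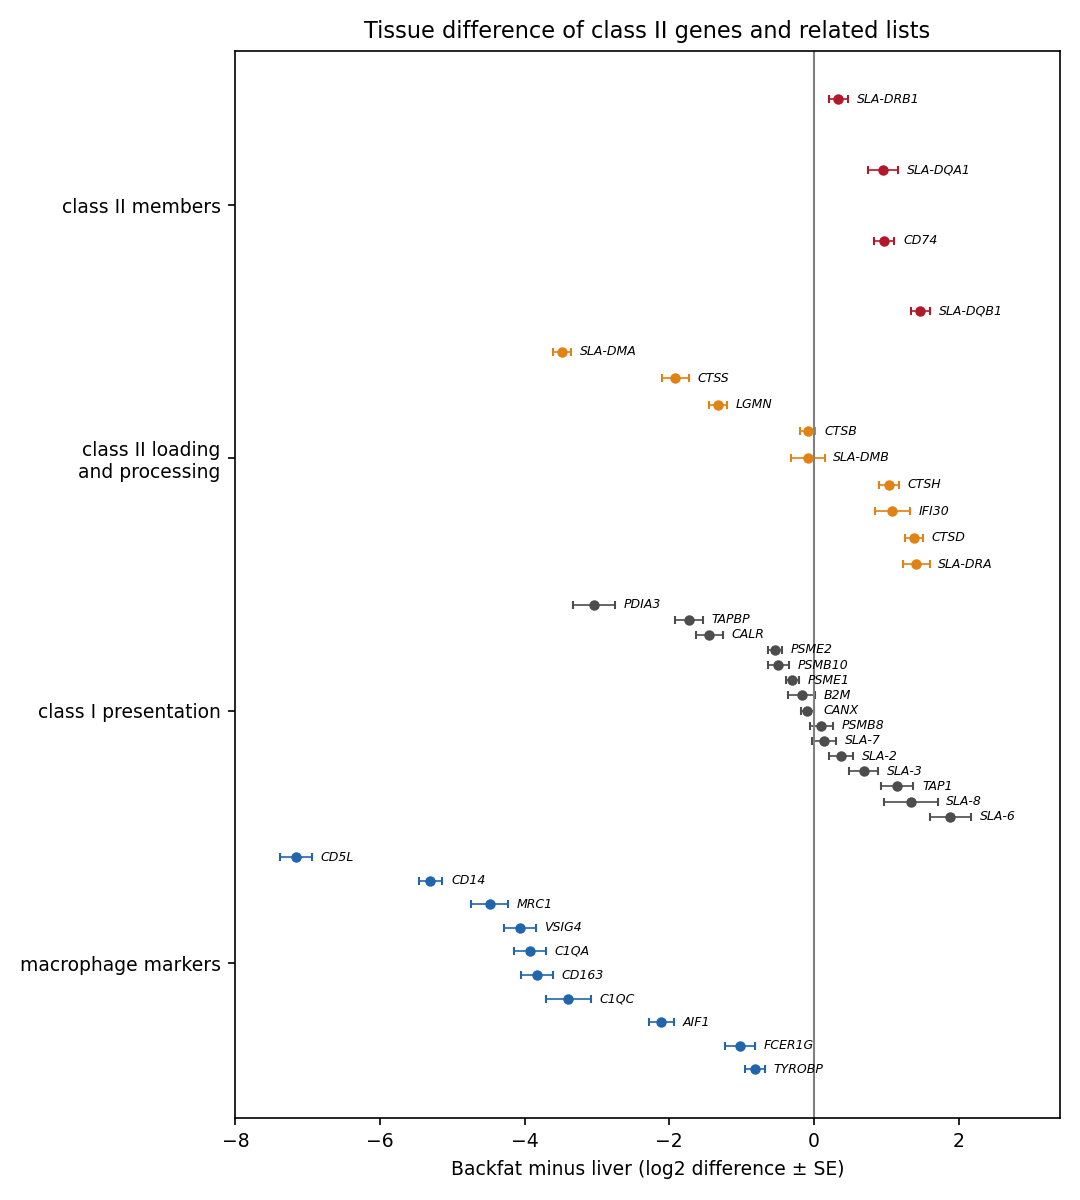
Backfat minus liver difference (log2 units, ± SE of the limma fit on 16 arrays) of 4 class II genes, 9 loading and processing genes, 15 class I presentation genes and 10 macrophage markers. The class II genes lie between 0.34 and 1.47, the loading and processing and class I genes lie on both sides of 0, and the macrophage markers all lie below 0.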

How the data were processed

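RNA of 16 liver and backfat samples was hybridised to Affymetrix porcine arrays, and the deposited values are log2 expression that the authors made with GCRMA, per the submitters' processing notes. Its version, and whether both tissues were processed together, is not given in the sources used here. Of 24123 probe sets 124 controls were left out. Symbols came from the platform annotation: 10069 probe sets have 1 symbol, 198 several and 13732 none listed, and 9961 matched RefSeq by gene ID with 0 symbols changed. Probe sets above 4 on at least 2 arrays of a fit were tested with limma 3.58.1 in R 4.3.3 (lmFit, eBayes, Benjamini-Hochberg, threshold 0.05), checked on simulated data. Cell means of sex by feeding were fitted on the 8 arrays of a tissue, and of tissue by sex by feeding on all 16. Differences are low minus high, female minus male and backfat minus liver. The p-values set each mean difference against the spread between arrays within cells. The fits on all 16 arrays take the 2 arrays of a male as independent, except where a replicate block is named.

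The class II genes and the gene lists were chosen with earlier results of these data known. All class II probe sets are described. For feeding in backfat and for tissue, the genes past the threshold, or else the 3 of lowest p, are named from the lists of class II loading, class II transcription, class I, interferon gamma, macrophages, dendritic, B and T cells, and a gene is represented by its brightest probe set. CTSS, CTSB, GBP1, CD163, SLA-DMA, SLA-DMB, C1QC, CD14, ALB and LEP were also named after their values were seen. Likeness is the Pearson r, over the 8 arrays of a tissue, with the mean of the class II genes, and the 5 genes of highest r are named. The labels give males 14 to 17 in both tissues, which pairs them. The deviations from the group means of their arrays correlated at 0.0874 (14 and 17) and 0.0549 (15 and 16) over 13962 probe sets. No sequences were used here.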

Additional observations from a re-analysis of the deposited data

How the results depend on the processing

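The main limits are 2 arrays in a cell, no depth or detection call behind a log2 value, and the unequal numbering of the females. For feeding in backfat the class II probe sets called went from 0 to 2 with all 16 arrays in 1 fit, and to 2 with that fit and a random replicate block of the males, SLA-DRB1 and SLA-DOA each time. The negative sign held for SLA-DRB1, SLA-DQA1, SLA-DQB1 and CD74 under every alternative run (-1.26 to -0.46). For the tissue difference 5 called became 3 with quantile normalization, 3 with a shift to a common median, 2 in males alone with a fixed replicate block, 3 with the arrays of females 20 and 21 left out (an alternative chosen after seeing the data), and 3 to 5 with 1 array left out. In each of these that gave 2 or 3, SLA-DOA no longer passed the filter. For the tissue by feeding difference the count was 0 to 1 with 1 array left out, and CD74 was -1.07 in males alone with a fixed replicate block. The replicate block changed no other call.

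Of 735 single-gene values under an alternative 46 changed sign, each of a difference that was not called. With quantile normalization and with a common median CD74 by sex in backfat was -0.000289 and -0.027, and the SLA-DQA1 interaction there 0.040 and 0.00228. With females 20 and 21 left out, feeding in liver was -0.038 for SLA-DQB1, -0.22 for SLA-DQA1 and -0.15 for CD74, sex in backfat 0.029 for SLA-DQA1 and -0.095 for CD74, and sex in liver -0.10 for SLA-DQA1. With 1 array left out, feeding in liver ranged from -0.12 to 0.27 for SLA-DQB1, -0.31 to 0.37 for SLA-DQA1, -0.21 to 0.082 for SLA-DRB1 and -0.070 to 0.27 for CD74. Sex in backfat ranged from -0.15 to 0.063 for SLA-DQB1, -0.18 to 0.092 for SLA-DQA1, -0.16 to 0.12 for SLA-DRB1 and -0.060 to 0.10 for CD74, and sex in liver from -0.26 to 0.43 for SLA-DQA1 and -0.00231 to 0.33 for CD74. The interaction ranged in backfat from -0.29 to 0.14 for SLA-DQB1 and -0.28 to 0.27 for SLA-DQA1, and in liver from -1.31 to 0.065 for SLA-DQA1. Over all probe sets the calls reached 72 for feeding in backfat and 12 in liver (main 0), 26 for sex in backfat (main 14), 89 to 981 for sex in liver (main 572) and 0 to 34 for the tissue by feeding difference (main 3). The cause was not tested.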
